A study of Mus musculus with 4 samples.

Results

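The genes described here encode the proteins of the cytoplasmic ribosome, as measured in mouse embryonic stem cells with and without an active form of the kinase Akt. They were chosen by symbol: probe sets that the platform annotation pairs with 1 gene whose symbol begins with Rpl or Rps and a digit, plus Rplp0, Rplp1, Rplp2 and Rpsa, without the Rps6k kinases and without pseudogenes marked -ps. The rule found 49 of 12422 probe sets, for 35 of 8251 genes. Of these genes, 31 are canonical ribosomal protein genes, out of 77 canonical names of that form, and the other 4 are Rpl39l, Rps27l, Rpl7l1 and Rps4l. RefSeq lists Rps4l as a transcribed pseudogene. Another 39 probe sets are paired with several genes, mostly a ribosomal protein gene and its pseudogenes, and are described as a group without names. No probe set of 1 gene was listed for Rplp1, Rplp2 or Rps6.

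The cells were E14tg2a, an embryonic stem cell line grown without feeders, and 4 arrays measured total RNA from 4 groups of 1 array each. Control cells were sampled in medium with 3000 U/ml of LIF (leukemia inhibitory factor, the cytokine that holds such cells undifferentiated) and after 4 days without it. Cells expressing constitutively active Akt, titled Akt12 in the labels and called Akt cells here, were sampled in the same 2 ways. The labels do not say which Akt was expressed, from which promoter, in how many clones, or whether the control cells carry a vector, so a difference of 1 clone from its parent line cannot be told apart from that of Akt. No group has a replicate, and the values of bulk cultures do not tell fewer cells of a kind from less RNA per cell.

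A ribosome is built from a large and a small subunit, each made of ribosomal RNA and many different proteins that are needed in equal numbers. Their genes are among the most strongly expressed in growing cells, and their mRNAs begin with a run of pyrimidines through which the kinase mTOR, downstream of Akt, controls their translation. That control acts on translation, which arrays of total RNA do not measure. A few ribosomal proteins have paralogs with restricted expression, of which Rpl39l, a paralog of Rpl39 best known from male germ cells, is 1.

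Most of the canonical genes were read by very bright probe sets. After quantile normalization they were level across the 4 arrays, and Rpl39l was the 1 gene of the set that differed by 2-fold or more. Intensities were made comparable by quantile normalization, which gives every array the same distribution, and values under the 40th percentile were raised to it, which put the floor at 15.8. Of the 35 genes, 26 were above the floor on all 4 arrays, 2 on 1 array and 7 on none. Those on none were Rpl32, Rpl38, Rpl39, Rps14, Rps15, Rps20 and Rps27l. The first 6 of these encode canonical ribosomal proteins, and for these genes the probe sets gave no level. Rpl39 could therefore not be set beside its paralog. Quantile normalization holds the brightest probe sets of every array at nearly equal values, and since many of these are ribosomal, a common shift of the bright members is partly removed by it. The medians of all members are therefore also given below with linear scalings.

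Among the brightest 1% of probe sets, which are 124 on an array, 18 to 20 were members and another 22 or 23 were probe sets of several genes with a ribosomal protein among them. The members' probe sets took 4.01% of the summed deposited intensity of the control array with LIF and 3.84% without it. On the Akt arrays their share was 4.29% and 4.41%. The probe sets of several genes gave 4.78%, 4.75%, 5.14% and 5.29% in the same order. Both shares were lowest in control cells without LIF and highest in Akt cells without LIF. A share within an array does not depend on how arrays are scaled to each other, but can depend on how the brightest probe sets respond. The trimmed means of the arrays were 121, 97.4, 81.7 and 80.3 in the same order, and the brightest intensities 6255, 5962, 5644 and 5335. The part of this in the shares was not tested.

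Stem cell markers were lower without LIF in both lines. Of 10 markers, 9 were above the floor on every array, and Esrrb was at it on all 4. Their summed normalized intensity in the control line was 10720 with LIF and 4087 without, and in the Akt line 11603 and 7646. Of 9 fibroblast or feeder markers, 3 to 7 were above the floor on an array, with sums between 239 and 589, highest in control cells without LIF, and Postn and Pdgfrb were at the floor on all 4. Of 7 markers of differentiating progeny, 5 to 7 were above it, and their sum was 692, 2947, 327 and 548 in the order above. Like the sum, Krt8, Krt18, Tagln and Nes were highest in control cells without LIF and lowest in Akt cells with LIF. The others were not: Gata4 had 15.8, 55.3, 59 and 47.7, and Gata6 had 15.8, 15.8, 30.6 and 19.2, where 15.8 is the floor. Afp was above the floor only with LIF, at 19.6 in control and 17.8 in Akt cells. The ratio of the 3' to the 5' actin probe set, which rises when RNA is degraded or labelled incompletely, was 2.33, 1.66, 3.04 and 2.48, lowest in control cells without LIF. The same ratio for Gapdh was 3.03, 3.19, 3.05 and 2.46, highest in control cells without LIF, so these ratios did not order the arrays alike. The part of these differences in the values below was not tested.

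**Figure D1:**
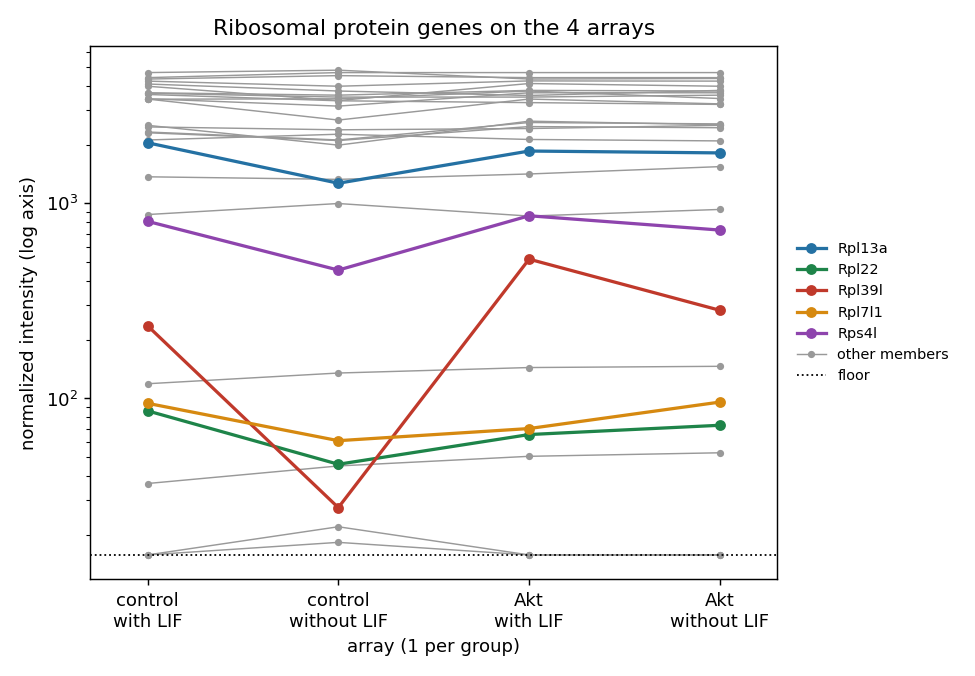
Normalized intensity (log axis) of the 28 ribosomal protein genes that exceeded the floor anywhere, on each of the 4 arrays; each line is 1 gene, read by 1 probe set, and the dotted line is the floor of 15.8. Most lines are flat, and Rpl39l runs from 27.6 in control cells without LIF to 518 in Akt cells with LIF.

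Rpl39l, which encodes a near copy of a short protein lining the exit tunnel of the large subunit, stood apart from every canonical gene. Its normalized intensity was 236 in control cells with LIF and 27.6 without it. In Akt cells it was 518 with LIF and 283 without. The Akt array without LIF was thus above the control array with LIF, and the control array without LIF was far below the other 3. As deposited, before any scaling, its intensities were 301.5, 30.5, 443 and 237.7. By rank within its array, the probe set was in the brightest 13.3% and 50% of the control arrays with and without LIF and in the brightest 5.62% and 11.1% of the Akt arrays.

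These values make Rpl39l 8.55-fold lower after LIF withdrawal in control cells (log2 difference -3.10) and 1.83-fold lower in Akt cells (-0.87). Against control cells, Akt cells had 2.19-fold more with LIF (1.13) and 10.3-fold more without it (3.36). With the floor at the 60th percentile, which raises the value of control cells without LIF, the log2 differences were -2.30 after withdrawal in control cells and 2.57 between the lines without LIF. As deposited, without scaling, the log2 difference of Akt from control cells with LIF was 0.56, under 2-fold. The difference of the LIF responses, Akt minus control, was 2.23 in log2 and was not tested, since no residual is left for it. The 4 comparisons share arrays, so the low value in control cells without LIF enters both of the larger differences.

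A model over all 4 arrays, with a term for LIF and a term for the line, was fitted with limma across 6258 genes. Its error was the difference of the lines' responses, shrunk toward that of all genes. Rpl39l had a LIF coefficient of -1.98 ± 0.48 (SE) in log2, with a Benjamini-Hochberg adjusted p of 0.167 by limma. Its line coefficient was 2.25 ± 0.48 (SE), with an adjusted p of 0.0893 by limma. Neither passed the threshold of 0.05. No member passed in either term, against 0.304% of all genes for LIF and 0.623% for the line. At an unadjusted p under 0.05, 1 member passed in each term, Rpl39l in both, against 9.32% and 9.64% of all genes. Restricted to plain _at probe sets, the line term of Rpl39l had an adjusted p of 0.0479 by limma, and over all the settings tried it ran from there to 0.498, while that of the LIF term ran from 0.11 to 0.606.

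The stem cell marker genes moved in the same directions as Rpl39l after LIF withdrawal. Of the 9 above the floor, 9 were lower in control cells without LIF, 6 of them by 2-fold or more, and 8 were lower in Akt cells, 3 of them by 2-fold or more. Zfp42, a zinc finger gene of undifferentiated stem cells, had normalized intensities of 1219.1, 82.4, 1784.5 and 552.8. Fgf4, a growth factor gene of the same state, had 402.6, 78.1, 673.8 and 481.2. It was the 1 marker of the 9 with the array order of Rpl39l, and in the other 8 the Akt array without LIF was below the control array with LIF.

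Sequence upstream of the annotated starts was compared for 3 genes, Rpl39l as the gene that differed, Rpl13a as the bright canonical gene that differed most, and Rplp0, a gene often used as a reference for stable expression. Sequences are from RefSeq, build GRCm38.p6, 5′ to 3′ along the gene, and stop before the annotated gene. Capitals mark matches, on either strand, to CCGGAAG (bound by ETS factors), CCATNTT (YY1), GGGCGG (Sp1), CCAAT (NF-Y), TTCNNNGAA (STAT factors) and GTAAACA (FOXO factors). The stretches are chr16:10169978-10170196 on the plus strand for Rpl39l, chr7:45128746-45128995 on the minus strand for Rpl13a and chr5:115559217-115559466 on the plus strand for Rplp0.
Rpl39l: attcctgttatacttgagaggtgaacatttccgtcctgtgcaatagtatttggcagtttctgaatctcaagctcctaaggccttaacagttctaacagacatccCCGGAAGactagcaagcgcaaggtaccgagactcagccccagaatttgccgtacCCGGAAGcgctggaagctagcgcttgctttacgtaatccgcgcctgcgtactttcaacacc
Rpl13a: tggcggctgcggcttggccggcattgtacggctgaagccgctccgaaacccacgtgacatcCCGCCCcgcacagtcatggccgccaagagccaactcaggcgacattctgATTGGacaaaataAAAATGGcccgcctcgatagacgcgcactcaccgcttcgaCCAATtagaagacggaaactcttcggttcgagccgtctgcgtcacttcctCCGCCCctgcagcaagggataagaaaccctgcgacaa
Rplp0: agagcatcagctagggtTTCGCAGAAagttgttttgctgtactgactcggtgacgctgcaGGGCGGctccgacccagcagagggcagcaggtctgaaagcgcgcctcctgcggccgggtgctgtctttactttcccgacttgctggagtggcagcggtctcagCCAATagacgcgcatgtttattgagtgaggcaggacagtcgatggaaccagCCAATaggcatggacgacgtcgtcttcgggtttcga

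The stretch of Rpl39l held CCGGAAG in 2 places and no other of the 6 motifs, and neither of the other 2 stretches held it. RefSeq's table had 37 promoters for 28 of the 35 genes. In the 250 bases before each start, CCGGAAG was present in 9 of the 37, or 24.3%, against 6.91% of 32851 promoters of all genes. The genes with it were Rpl19, Rpl38, Rpl39l, Rpl41, Rps10, Rps18, Rps3a1, Rps7 and Rpsa. CCATNTT was in 24.3% of the members' promoters and 12.4% of all, GGGCGG in 45.9% and 32.7%, and CCAAT in 24.3% and 33.9%. TTCNNNGAA was in 1 of the 37 (Rplp0), or 2.7%, against 7.02% of all, and GTAAACA in 1 (Rpl41), or 2.7%, against 3.17%. The median GC content was 57.6% in the members' windows and 52.4% in all. A match is a run of letters in this window and no evidence of binding, and the start used in these cells was not measured.

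After LIF withdrawal in control cells, the canonical genes moved little and more of them down than up. Of 28 members that exceeded the floor on either array, none was 2-fold higher, against 7.39% of all genes, and 1, Rpl39l, was 2-fold lower, against 6.4% of all genes. At least 1.5-fold lower were 5 of the 28, against 17.8% of all genes, and 1.5-fold higher none, against 16.4%. The median log2 difference of the 28 was -0.08, beside -0.03 for all 5984 genes, and 18 of 28, or 64.3%, were below 0, beside 51.8% of all genes. With the arrays as deposited or scaled linearly the median ran from -0.37 to -0.05, and its difference from that of all genes from -0.10 to -0.09. Without Rpl39l the differences of the members ran from -0.91 to 0.48, with an SD of 0.33.

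The 5 genes at least 1.5-fold lower were, after Rpl39l, Rpl22, Rps4l, Rpl13a and Rpl7l1. Rpl22 encodes a large subunit protein that cells can do without, and its intensities were 86.4 with LIF and 46 without in control cells, and 65.3 and 72.9 in Akt cells. That is a log2 difference of -0.91 in control cells and 0.16 in Akt cells, and control cells without LIF were lowest. A second probe set of Rpl22, near the floor at 33.9, 25.6, 25.5 and 24.8, gave -0.41 and -0.04. Rpl13a, whose protein sits in the large subunit and whose introns carry small nucleolar RNAs, had 2045 and 1268 in control cells and 1855 and 1814 in Akt cells. Its log2 differences were -0.69 and -0.03, so only the control array without LIF stood low.

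Rps4l, listed as a transcribed pseudogene, was read by an _s_at probe set, a kind whose probes may match related transcripts. It had 809 and 455 in control cells and 864 and 730 in Akt cells, log2 differences of -0.83 and -0.24. Rps4x, the X-linked gene of the same family, had 3616 and 3357 in control cells and 3285 and 3216 in Akt cells. Its differences, -0.11 and -0.03, were smaller on both sides. Rpl7l1 encodes a nucleolar protein of large subunit assembly rather than a part of the mature ribosome, with 94.5 and 60.8 in control cells and 70.1 and 95.8 in Akt cells. It was lower without LIF in control cells (-0.64) and higher in Akt cells (0.45).

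Among the large subunit genes, 12 of 15 with a probe set were above the floor, with a median of -0.10 in control cells after withdrawal, or -0.38 as deposited. Rpl8, which encodes a conserved protein near the catalytic center, had 3426 with LIF and 2674 without, a log2 difference of -0.36. Rplp0, the base of the stalk that recruits elongation factors, had 4234, 3985, 4244 and 4234 on the 4 arrays, within 0.09 in log2. Rpl41, the shortest ribosomal protein, had 4339, 4517, 4412 and 4412, and its equal values on both Akt arrays mean an equal rank there. The other bright genes were Rpl6, Rpl7, Rpl7a, Rpl10a and Rpl19, between -0.14 and 0.10. The dimmer Rpl37a was at 0.19, and Rpl35a, at the floor on the other 3 arrays, read 22 in control cells without LIF, which is at least 1.39-fold higher.

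Of the small subunit genes, 13 of 16 with a probe set were above the floor, with a median of -0.04, or -0.33 as deposited, where the median of all genes was -0.26. Rps3, which lies at the path by which mRNA enters the ribosome, had 2513 with LIF and 1989 without, a log2 difference of -0.34. Rps10, at the same entry region, had 3985 and 3366, or -0.24. Rpsa, also known as a laminin receptor precursor, had 1369 and 1328, and 1415 and 1543 in Akt cells, or -0.04 and 0.13. Rps19 and Rps24, both genes mutated in Diamond-Blackfan anemia, had 0.01 and 0.04. The others, Rps4x, Rps7, Rps18, Rps3a1 and Rps28, lay between -0.12 and 0.09. Rps27 and Rps29, whose probe sets were dim, had 0.18 and 0.30. Rps13 was above the floor only in control cells without LIF, at 18.3, and was at least 1.16-fold higher.

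**Figure D2:**
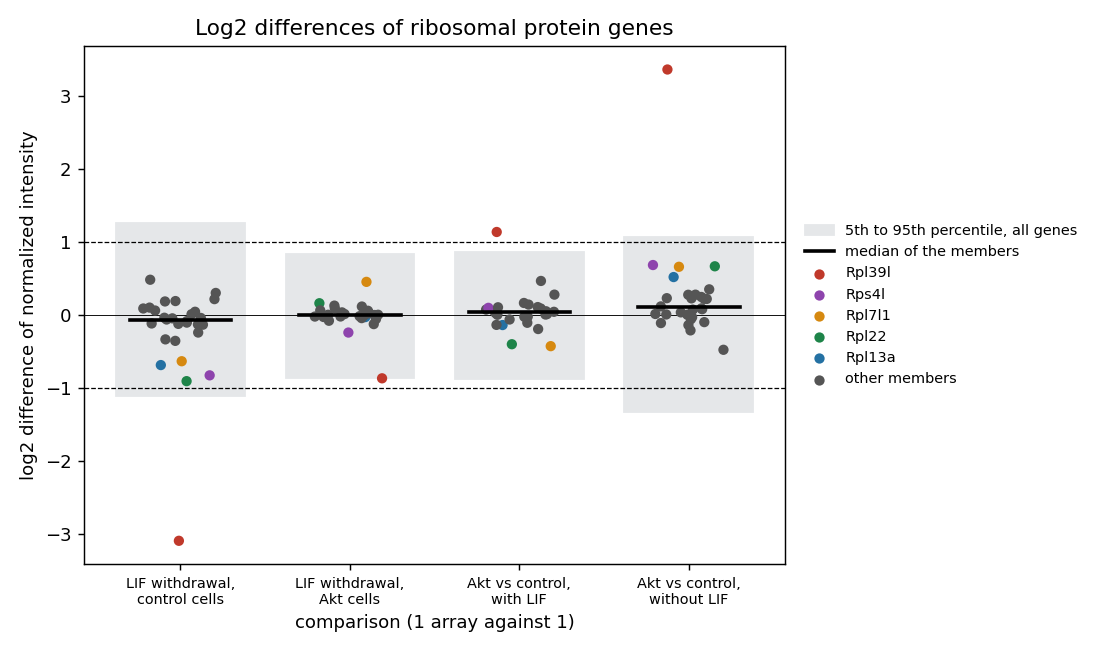
Log2 difference of normalized intensity of each ribosomal protein gene in the 4 comparisons of 1 array with 1; black bars are medians of the 26 or 28 members above the floor, grey boxes span the 5th to 95th percentile of all genes, and dashed lines mark 2-fold. Rpl39l lies outside the dashed lines in 3 comparisons, and all other members lie inside them in all 4.

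In Akt cells the canonical genes were flatter still after LIF withdrawal. None of 26 members above the floor was 2-fold different, against 6.66% of all genes, of which 3.01% were higher and 3.65% lower. The median was -0.00, beside 0.01 for all 5945 genes, with 10 members above 0 and 13 below. The direction turned with the scaling. When arrays were divided by their trimmed means, the median was 0.08, beside 0.03 for all genes, with 6 of 26 below 0. Scaled to the hybridization controls it was -0.12, with 25 of 26 below 0 and a median of all genes of -0.16. At 1.5-fold, only Rpl39l was lower, against 10.7% of all genes, and none was higher, against 10.8%. The lowest canonical gene was Rps19 at -0.13, with 3767 with LIF and 3447 without, followed by Rpl8 at -0.08 and Rps3 at -0.06. The highest were Rpl22 at 0.16, Rpsa at 0.13 and Rpl37a at 0.11. After quantile normalization every canonical gene above the floor was thus within 0.16 of no difference in log2.

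Akt cells with LIF differed little from control cells with LIF in these genes. Of 26 members, Rpl39l was 2-fold higher, against 3.5% of all genes, and none was 2-fold lower, against 3.64%. In both directions together 7.14% of all genes were 2-fold different. The median was 0.03, beside 0.01 for all 5938 genes, with 16 members above 0 and 9 below. It was 0.23 when scaled to the hybridization controls, where that of all genes was 0.13. In the values as deposited it turned to -0.45, where the median of all genes was -0.52. Rps29, a short zinc-binding protein of the small subunit, was highest among canonical genes at 0.46, at 36.6 in control and 50.5 in Akt cells, close to the floor. Rps27 followed at 0.28 and Rpl19 at 0.16. The lowest were Rpl22 at -0.40, Rpl7 at -0.20 and Rpl13a at -0.14.

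Without LIF, most members were higher in Akt than in control cells, by small amounts. Of 28 members, 20 were above 0 and 7 below, with a median of 0.10 beside 0.06 for all 6009 genes, of which 44.8% were below 0. Divided by trimmed means or scaled to the hybridization controls, the median was 0.26 and 0.29, and as deposited it turned to -0.02 where that of all genes was -0.23. Rpl39l was 2-fold higher, against 5.87% of all genes, and none was 2-fold lower, against 8.12%. At least 1.5-fold higher were Rpl39l, Rps4l (0.68), Rpl22 (0.66) and Rpl7l1 (0.66), or 4 of 28, against 16.7% of all genes. None was 1.5-fold lower, and 31.7% of all genes were 1.5-fold different in either direction. Rpl13a followed at 0.52, then Rps3 at 0.35 and Rpl8 at 0.28. These are the genes that were lowest in control cells after LIF withdrawal, and both comparisons use the array of control cells without LIF. The lowest were Rpl35a and Rps13, which were at the floor in Akt cells, then Rps24 at -0.14 and Rpl10a at -0.11.

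The bright members spread less than other genes when all over 1000 were taken. Over 3000 they spread about as much, except in Akt cells after LIF withdrawal. The 19 members with a mean intensity over 1000, all canonical, had an SD after LIF withdrawal of 0.19 in log2 in control cells and 0.06 in Akt cells. The 169 other genes over 1000 had SDs of 0.55 and 0.30, and 10 of them differed by 2-fold in control cells. These 2 sets are not of like brightness, since 12 of the 19 members and 10 of the 169 other genes lie over 3000. Over 3000, the SDs of members and others were 0.13 and 0.14 in control cells and 0.05 and 0.11 in Akt cells. For Akt against control cells they were 0.10 and 0.10 with LIF and 0.13 and 0.12 without. Below 1000, 9 members had an SD of 1.12 in control cells and 5787 other genes 0.76, but without Rpl39l the SD of the other 8 members was 0.56. In Akt cells the SD below 1000 was 0.42 for 7 members, 0.22 without Rpl39l, and 0.55 for the other genes. The medians over 1000 were -0.09 for members and -0.10 for the others in control cells, with 14 of 19 members and 63.3% of the others below 0. Whether bright probe sets respond in proportion to RNA cannot be seen in these values.

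**Figure D3:**
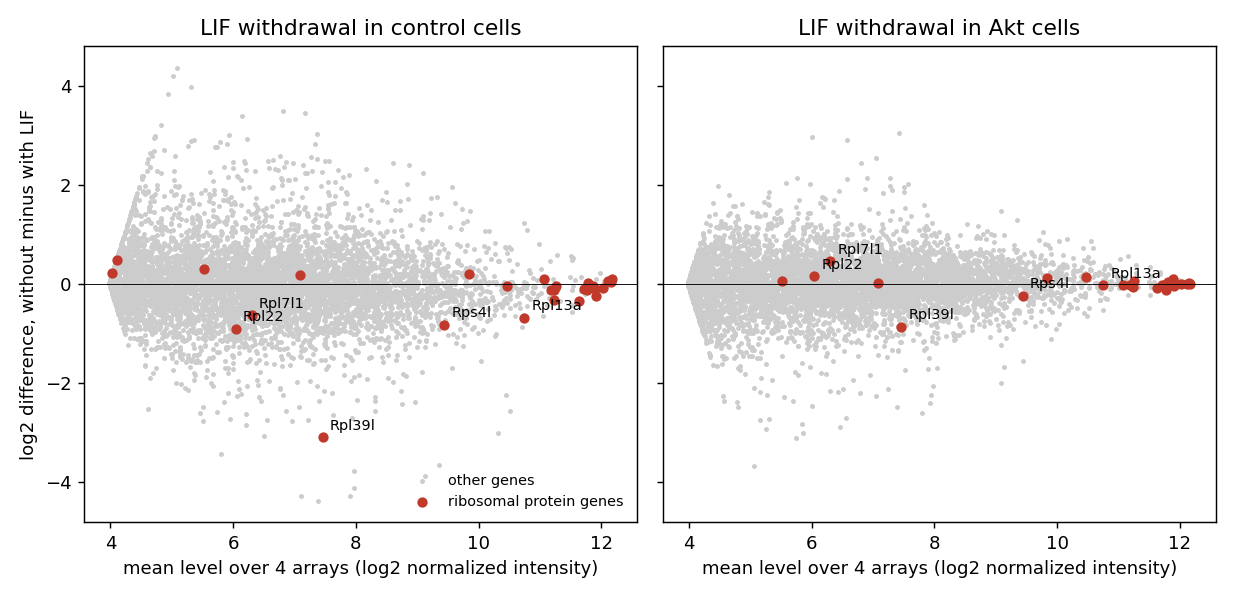
Log2 difference after LIF withdrawal (without minus with LIF) against the mean log2 normalized intensity over 4 arrays, for control cells (left) and Akt cells (right); red points are ribosomal protein genes and grey points are other genes. The 19 members over an intensity of 1000 (about 10 on this axis) lie close to 0, where other genes also spread less, and Rpl39l lies at -3.10 and -0.87.

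Probe sets of 1 gene did not always give the same value. Of 10 members with several probe sets, Rpl10a had 2 bright ones, at -0.29 and 0.10 in control cells after LIF withdrawal and at -0.12 and -0.02 in Akt cells. Rps28 had 2 bright ones that gave 0.13 and 0.09 in control cells, and another near the floor. The bright probe set of Rps24 carries the same sequence accession in the annotation as that of Rpl7, so which of these genes each reads cannot be told apart. The other probe sets of Rps24 and of Rpl7 were at the floor on all 4 arrays, so the values of both genes rest on this pair. The probe set of Rpl7a likewise shares its accession with those of Surf1 and Surf2, its neighbours in the genome. Like that of Rps4l, the probe sets used for Rpl7 (_s_at), Rps24 (_r_at), Rpl10a, Rpl41 and Rps28 (_f_at) are not plain _at ones. Rps4x had 4 further probe sets, of which 3 were at the floor throughout. Only the Rpl19 probe sets differed by more than 1 in log2 in a comparison, -0.84 and 0.27 for Akt against control cells without LIF, and the first was above the floor on 1 array only, at 28.3. Over all genes with several probe sets, those of a gene spread with an SD of 0.46 in control cells after LIF withdrawal and 0.38 in Akt cells, which covers probe sets and not cultures.

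In the 39 probe sets of several genes no 2-fold difference was seen. Of all genes, 13.8% and 6.66% were 2-fold different after LIF withdrawal in control and Akt cells. Between the lines, 7.14% were with LIF and 14% without. At 1.5-fold, 3, 1, 1 and 0 of these probe sets differed in the same order, against 34.2%, 21.5%, 23.3% and 31.7% of all genes. In control cells after LIF withdrawal, 34 of them were above the floor, with a median of -0.07 and a range from -0.93 to 0.38. In Akt cells the median was 0.00, with a range from -0.60 to 0.38. For Akt against control cells the medians were 0.02 with LIF and 0.06 without.

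Other parts of the translation machinery had larger medians after LIF withdrawal in control cells. Mitochondrial ribosomal protein genes, whose products build the separate ribosome of mitochondria, had a median of -0.50 over 58 genes in control cells after LIF withdrawal, with 51 below 0, 8 at least 2-fold lower and none higher. Of all genes in this comparison, 51.8% were below 0, 6.4% were 2-fold lower and 7.39% were 2-fold higher. Mrpl12 was lowest, with 122.8 with LIF and 46.5 without, and Mrpl15 next, with 331.1 and 130.7. In Akt cells their median was 0.06 over 60 genes, with 1, Mrps10, 2-fold lower, against 3.65% of all genes. Ribosome biogenesis genes had a median of -0.66 over 40 genes in control cells, with 5 at least 2-fold lower. Their median in Akt cells was 0.22, and 2 were at least 2-fold higher, against 3.01% of all genes. Utp14a, a gene of small subunit processing, had 328.7 and 70.9 in control cells and 156.4 and 401.6 in Akt cells.

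RNA polymerase I genes, for the enzyme and factors that transcribe ribosomal RNA, had medians of -0.76 and 0.14 over 11 genes. In each line 1 was at least 2-fold lower, against 6.4% of all genes in control cells and 3.65% in Akt cells. Polr1e had 85 with LIF and 38.3 without in control cells, and Ubtf, an activator of this transcription, had 234.7 and 115.5 in Akt cells. Genes whose symbols start with Eif are mostly initiation factors and their subunits, but 7 of the 41 are eIF2 kinases (such as Eif2ak3) or repressors of eIF4E (such as Eif4ebp1). They had medians of -0.35 over 39 genes and 0.14 over 36, or -0.36 and 0.16 without those 7, with Eif2s2 2-fold lower in control cells, at 393.2 and 141.6, and none in Akt cells. Genes whose symbols start with Eef, mostly elongation factors, had medians of -0.35 and 0.12 over 6 genes. Other mRNAs with a terminal pyrimidine run had -0.32 over 22 genes and 0.07 over 21, with none at 2-fold. These lists are dimmer than the ribosomal proteins: the median intensity was 155 for mitochondrial ribosomal proteins, 301 for biogenesis and 752 for other mRNAs with a pyrimidine run, against 2357 for canonical large and 3485 for canonical small subunit genes. A part of brightness in the contrast between lists was not tested.

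**Figure D4:**
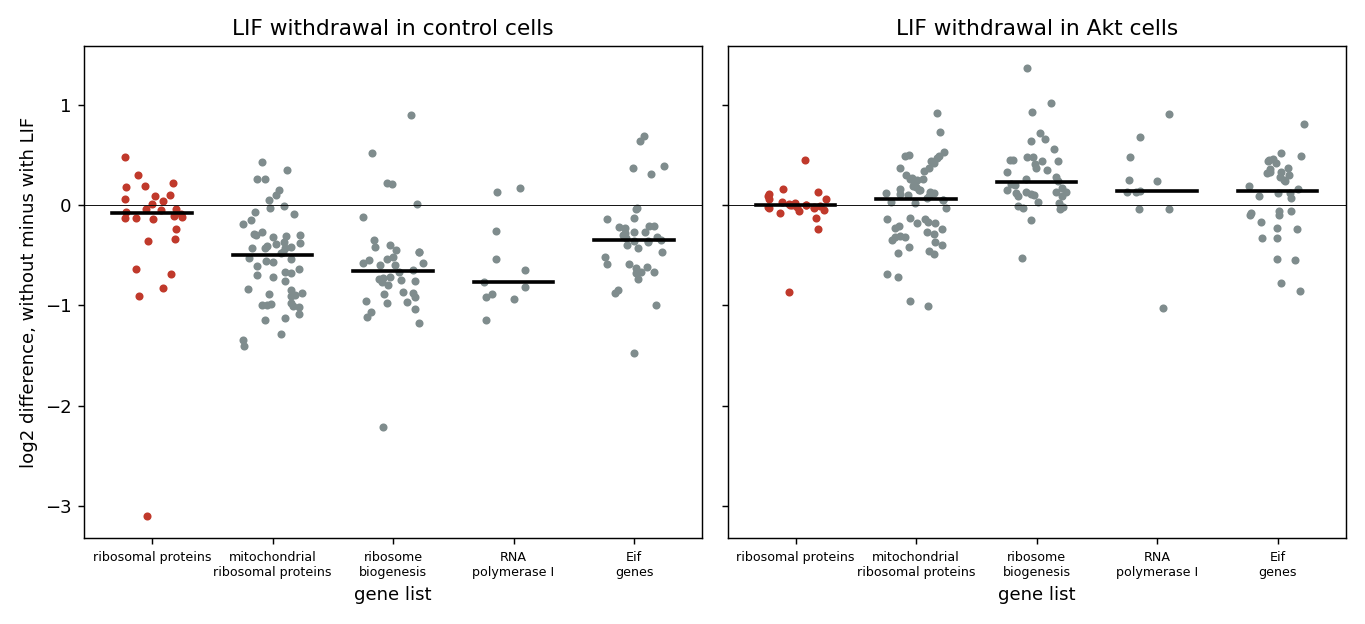
Log2 difference after LIF withdrawal (without minus with LIF) for ribosomal protein genes (red) and 4 lists of the translation machinery (grey), in control cells (left) and Akt cells (right); each point is a gene above the floor and black bars are medians. In control cells the medians are -0.08 for ribosomal proteins and -0.50, -0.66, -0.76 and -0.35 for the other lists in the order drawn.

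For Akt against control cells without LIF, the medians of these lists were positive and above the 0.10 of the ribosomal proteins. They were 0.59 for mitochondrial ribosomal proteins, with 55 of 58 above 0, 0.61 for biogenesis, 0.76 for RNA polymerase I and 0.31 for the Eif genes. Under the other scalings, values as deposited included, these 4 medians stayed above 0, and those in control cells after LIF withdrawal below 0. With LIF the same medians were 0.08, -0.27, -0.18 and -0.22, and as deposited that of mitochondrial ribosomal proteins turned to -0.50. Eif2s3y was the lowest Eif gene between the lines in both media. It had 134.6 with LIF and 84.1 without in control cells, and 16.5 and 15.8, the floor, in Akt cells. Whether this is a difference of clones was not tested. In Akt cells after LIF withdrawal, scaling to the hybridization controls turned the medians of mitochondrial ribosomal proteins, RNA polymerase I, the Eif genes and the Eef genes below 0, to -0.14, -0.05, -0.04 and -0.05. It also turned that of other mRNAs with a pyrimidine run to -0.08, and that of biogenesis stayed at 0.04. The genes of the S6 kinases and the mTOR pathway had a median over 14 genes of -0.14 after LIF withdrawal in the control line and -0.04 in the Akt line, with Akt2, at the floor without LIF, at least 2-fold lower in control cells. Rps6kb2, a kinase of ribosomal protein S6, was 2-fold lower in Akt cells. Rps6kb2 had 46.8 with LIF and 18.2 without in Akt cells. Ddit4, an inhibitor of mTOR, had 338.6 and 533.2 in control cells and 900.5 and 1107.9 in Akt cells.

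The regulators of growth had a median of -0.22 over 10 genes after LIF withdrawal in control cells, with 1 at least 2-fold higher and 2 lower. In Akt cells it was 0.03, with 2 higher and none lower. Of all genes, 7.39% were 2-fold higher and 6.4% lower in control cells, and 3.01% and 3.65% in Akt cells. Scaled to the hybridization controls the median in Akt cells turned to -0.18. Mycn, a Myc family gene prominent in stem cells, had 858.3 and 227.3 in control cells and 202.1 and 465 in Akt cells. It was thus 2-fold lower without LIF in control cells and 2-fold higher in Akt cells. Mycl, of the same family, went the other way in control cells, with 93.4 and 255.3, and had 30.5 and 65.8 in Akt cells. Myc had 105 and 98.9, and 42.9 and 81.4. Fau, a fusion of ubiquitin-like and small subunit protein sequences that the symbol rule does not take in, was at the floor on all 4 arrays.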

How the data were processed

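The deposited table gives 1 intensity per probe set and array on a linear scale. The sources used here do not give the software or scaling behind these deposited values, and the 2% trimmed means of the deposited intensities ran from 80.3 to 121. The 66 array controls were left out, the rest was put through quantile normalization (limma 3.58.1, R 4.3.3), floored at 15.8 and put on a log2 scale. The platform annotation paired 10833 probe sets with 1 symbol, and RefSeq (GRCm38.p6) held 10817 of them for current symbols. Of several probe sets of a gene, the brightest on average was used. A gene counted in a comparison when above the floor on at least 1 of its 2 arrays, and as different at 2-fold. The additive limma model was two-sided with Benjamini-Hochberg adjustment, 1 residual and 8.69 prior degrees of freedom. Its error was thus drawn mostly from the residuals of all genes and less from the gene's own. That residual is the difference of the lines' responses, so the p-values do not measure spread between replicate cultures, of which there were none. The number of arrays, 4, limits precision. Steps were tested on simulated data. The members, lists and naming rule (members past 2-fold, the 3 highest and lowest canonical members of a comparison, paralogs, stalk proteins, Rpsa, discordant probe sets, limma calls and the extremes of each list) were chosen with earlier results of these data known. Other genes named, such as Ddit4, Mycn, Mycl and Myc, were added after their values were seen where no part of that rule takes them in.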

Additional observations from a re-analysis of the deposited data

Results flagged for a closer look

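Rpl7l1, the gene of large subunit assembly, had LIF responses of opposite sign in the lines, each larger than the spread of probe sets of a gene. The Akt response exceeded the control response by 1.09 in log2. This difference was 1.07 for Rpl22, whose response in Akt cells was within that spread, and 2.23 for Rpl39l, whose responses had the same sign. Ribosome biogenesis genes as a list also had medians of opposite sign, -0.66 in control and 0.22 in Akt cells. These differences were not tested, since each response rests on 2 arrays and no residual is left.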

How the results depend on the processing

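In 116 recomputed values, counts stayed within 1.5 times and medians within the spread of probe sets of a gene. The medians of the members ran from -0.37 to -0.05 and -0.12 to 0.08 for LIF withdrawal in control and Akt cells, and from -0.45 to 0.23 and -0.02 to 0.29 for Akt against control with and without LIF. The exceptions follow. In control cells after LIF withdrawal, 2 members were 2-fold lower when scaled to the hybridization controls (Rpl39l and Rps4l). As deposited they were 4 (Rpl13a, Rpl22, Rpl39l and Rps4l), and with canonical genes only 0. Of all genes, 467 were 2-fold lower when scaled to these controls and 776 as deposited, against 383 after quantile normalization. Members 2-fold higher were 1 (Rpl35a) with a floor at the 20th percentile, where 720 of all genes were, against 442 with the floor at 15.8. In Akt cells, members 2-fold lower were 1 (Rpl39l) when scaled to the hybridization controls and 2 (Rps15 and Rps20) with the lower floor. Of all genes, 343 and 490 were 2-fold lower there, against 217 after quantile normalization with the floor at 15.8. For Akt against control cells with LIF, members 2-fold higher were 0 as deposited, 2 with the lower floor and 0 with canonical genes only. Of all genes, 66 were 2-fold higher as deposited and 477 with the lower floor, against 208 otherwise. As deposited, 1 (Rpl7l1) was 2-fold lower and the median was -0.45, where the median of all genes was -0.52. There 1002 of all genes were 2-fold lower, against 216 after quantile normalization. Without LIF, members 2-fold higher were 2 with the lower floor and 0 with canonical genes only, and 2-fold lower were 3 with the lower floor. With that floor, 662 of all genes were 2-fold higher and 778 lower, against 353 and 488 with the floor at 15.8. At 1.5-fold, members different were 5, 1 and 4 for LIF withdrawal in control and Akt cells and Akt against control cells without LIF. Of all genes, 34.2%, 21.5% and 31.7% were. With plain _at probe sets, 1 member (Rpl39l) passed limma's line term. The lower floor admits more dim probe sets, and canonical genes leave out Rpl39l. For the other exceptions the cause was not tested.

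With 1 probe set a gene, the members' shares of summed intensity were 3.68%, 3.5%, 3.93% and 4.05%, in the same order of arrays. The log2 difference of Rpl39l after LIF withdrawal ran from -3.31 to -2.30 in control cells and from -1.08 to -0.87 in Akt cells over these settings. Between the lines it ran from 0.56 to 1.24 with LIF and from 2.57 to 3.36 without. Scaled to the hybridization controls, the median of all genes was -0.16 in Akt cells after LIF withdrawal and 0.13 for Akt against control cells with LIF, and of the genes 2-fold different the higher share went from 45.2% to 24.6% and from 49.1% to 63.3%. As deposited that share was 30.2%, 6.18% and 18.8% for LIF withdrawal in control cells and Akt against control with and without LIF, against 53.6%, 49.1% and 42% after quantile normalization. No pairing beyond the line was possible because the labels give no replicate numbers to pair by. The additive limma model already holds the line as a term, so its LIF term compares the media within each line. Leaving out an array was not possible because each group has 1 array.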
